A study of Mus musculus with 6 samples.

Results

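Heparan sulphate proteoglycans are cell-surface and matrix proteins that carry long sulphated sugar chains, and the genes described here encode their core proteins and the enzymes that make, sulphate and trim those chains. The set was defined by 34 gene symbols, and every probe whose platform annotation carried 1 of them was taken. There were 64 such probes for 31 of the 34 genes, out of 17711 named genes on the arrays. Ndst1, Xylt1 and Hs6st1 were not analysed here.

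A heparan sulphate chain starts with UDP-sugar precursors and a short linker, which xylosyl-, galactosyl- and glucuronosyltransferases attach to a serine of the core protein. Exostosin enzymes then extend the chain, N-deacetylase/N-sulphotransferases begin its sulphation, and an epimerase and the 2-O-, 6-O- and 3-O-sulphotransferases complete the pattern. Outside the cell the Sulf enzymes remove 6-O-sulphate groups and heparanase cuts the chain. FGF ligands bind these chains together with their receptors, and in the mouse N-sulphated heparan sulphate is known to be needed for FGF signalling when the lens is induced.

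RNA came from the prospective lens tissue of 3 Pax6-/- embryos, where the tissue is labelled surface ectoderm, and of 3 wild-type embryos, where it is labelled lens placode. All embryos were of stage E10.25 on a mixed FVB and 129 background, and the Pax6 allele is not described in the labels. The tissue was cut by laser from frozen sections, and RNA of both prospective lenses of 1 embryo was amplified to cDNA and hybridised to 1 Illumina bead array. The question was which of these genes differ in abundance where Pax6, a transcription factor needed for eye development, is missing. Levels are normalised log2 intensities, and changes are Pax6-/- minus wild type with the standard error (SE) of a limma fit over all genes.

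At a detection p-value under 0.05, 35% to 37.8% of all probes were above background on Pax6-/- arrays and 36.2% to 40.2% on wild-type arrays. The median raw intensity was 57.1 to 62.8 on Pax6-/- arrays and 55.2 to 64.3 on wild-type arrays. Pax6 RNA was measured in both genotypes, at 9.96 ± 0.16 in Pax6-/- tissue and 10.48 ± 0.27 in wild type (SD, n = 3 each), with a change of -0.52 ± 0.25 (limma adjusted p = 0.623). Its 3 probes gave changes of -0.52, -0.99 and -0.82, and whether they lie in the altered part of the allele is not known here, so they do not check the genotype. Of the 14 lens placode and surface ectoderm markers tested, 6 were lower and 0 higher at an unadjusted p under 0.05. Over all genes, 4.7% were lower and 4.24% higher at that threshold. The brightest probes of the epithelial genes Krt8, Krt18, Cdh1, Tfap2a and Epcam were above background on every array. A second Cdh1 probe and dimmer Tfap2a probes (ILMN_2726449 and ILMN_1222212) were above background on 4 arrays each. For each of these Tfap2a probes they were 1 Pax6-/- array and 3 wild-type arrays. Epcam read 8.86 to 9.01 on Pax6-/- arrays and 9.60 to 9.84 on wild-type arrays (change -0.80 ± 0.21, limma adjusted p = 0.308). Trp63 had a change of 1.10 ± 0.52. The lens regulators Maf and Prox1 passed the adjusted threshold and were lower in Pax6-/- tissue. The summed intensity of 6 red blood cell markers was 3800 to 5660 on Pax6-/- arrays and 460 to 3160 on wild-type arrays, with Epb42 not above background on any array and 3 of 5 tested higher at an unadjusted p under 0.05 (Slc4a1 with a change of 2.74 and Hba-x with 2.63 among them). That of 7 optic cup markers was 969 to 1950 on Pax6-/- arrays and 464 to 691 on wild-type arrays. Hes5 was not above background on any array, and 3 of 6 tested were higher (Rax 1.90, Otx2 2.12 and Zic1 2.51). Lhx2 (0.72), Six6 (0.42) and Mitf (-0.31) did not pass that threshold. Zic1 was the brightest of these markers on every Pax6-/- array. The summed intensity of 8 endothelial markers was 706 to 1070 on Pax6-/- arrays and 411 to 456 on wild-type arrays, with Tie1 not above background on any and 1 of 4 tested higher (Cldn5 2.23). That of 10 mesenchyme and neural crest markers was 946 to 1850 on Pax6-/- arrays and 1680 to 2590 on wild-type arrays, with Foxc1 not above background on any, 2 of 8 tested higher (Prrx2 2.10, and Twist2, which was above background on 3 Pax6-/- arrays and 0 wild-type arrays) and 1 lower (Pdgfra -3.81). A second Pdgfra probe had a change of 0.11, so that call depends on the probe. Pdgfra was the brightest of these markers on every wild-type array (10.19, 10.42 and 10.60), and read 5.11, 7.96 and 6.71 on Pax6-/- arrays. The wild-type mesenchyme sums therefore rest largely on Pdgfra, and the median change of the 8 tested was 0.47. The summed intensity of 3 macrophage markers was 90.8 to 377 on Pax6-/- arrays and 97.8 to 550 on wild-type arrays. Ptprc was not above background on any array, and 0 of 1 tested passed an unadjusted p of 0.05 (Aif1 0.20). Pax6-/- array 1 stood apart in sex-linked RNA. Its level of Xist, the RNA that silences an X chromosome in females, was 5.74, against 10.51 and 10.65 on the other Pax6-/- arrays and 10.09 to 10.51 on the wild-type arrays. The Y-linked gene Eif2s3y was above background on that array and on no other.

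Most of the heparan sulphate machinery was expressed in the prospective lens tissue of both genotypes. Each Pax6-/- array detected 37 to 39 of the 64 probes and each wild-type array 35 to 38. These covered 24 to 26 of the 31 genes on Pax6-/- arrays and 23 to 26 on wild-type arrays. All 11 core proteins were tested, and all but Sdc1 and Sdc4 were above background on all 6 arrays. The filter asked for a probe to be above background on at least 3 of the 6 arrays, and 26 of the 31 genes passed it with 40 probes. Of these 26, 18 were above background on all 6 arrays.

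The 5 genes that did not pass stand for different steps. B4galt7, a galactosyltransferase of the linker, Ndst3, an N-deacetylase/N-sulphotransferase, and Hpse, the heparanase, were not above background on any array. Ext2, which forms the chain polymerase together with Ext1, had 3 probes, and 2 of them were above background on 1 array each, both Pax6-/-. Hs3st3a1, a 3-O-sulphotransferase, had 1 probe above background on 1 Pax6-/- array and another on 2 Pax6-/- arrays, and neither on a wild-type array. The detection p of the latter was 0.0318 to 0.0536 on Pax6-/- arrays and 0.0512 to 0.0599 on wild-type arrays. That split lies at the threshold and does not separate the genotypes. A probe that stays at background gives no level, so these genes cannot be called absent.

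**Figure D1:**
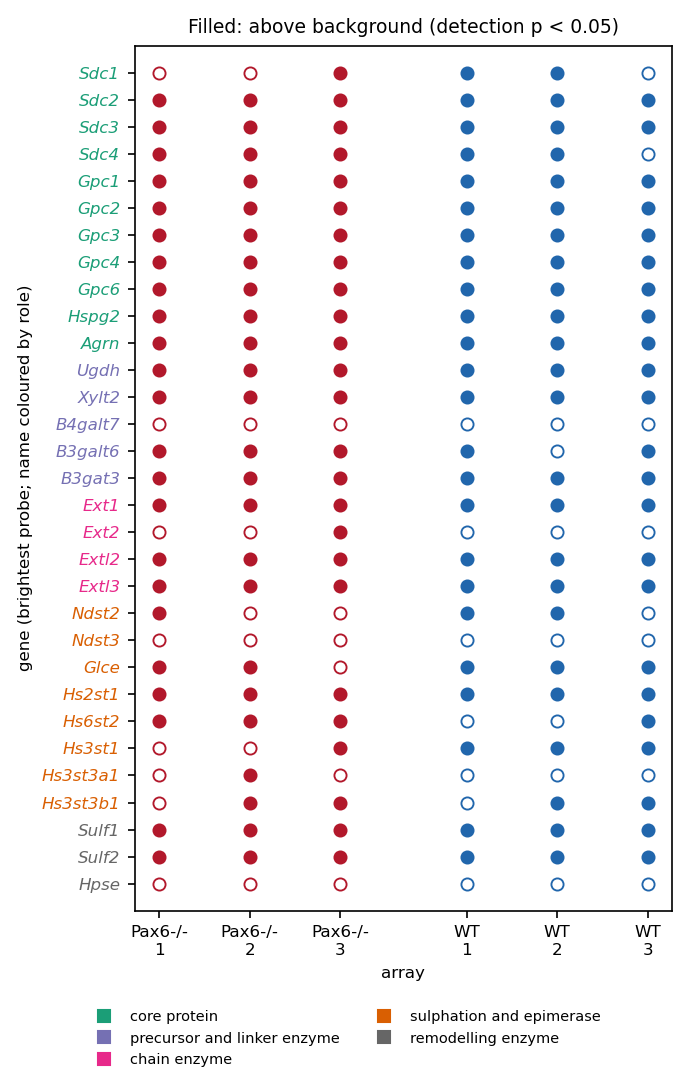
Detection of the 31 genes on the 6 arrays, with Pax6-/- arrays on the left and wild-type arrays on the right. A filled circle marks an array on which the brightest probe of the gene was above background (detection p-value under 0.05), and gene names are coloured by role. The core proteins are filled nearly throughout, while Hs6st2 is filled on 3 Pax6-/- arrays and 1 wild-type array and Hs3st1 on 1 Pax6-/- array and 3 wild-type arrays.

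No gene of the set passed the adjusted threshold between Pax6-/- and wild-type tissue. Over all 13805 genes or unnamed probes tested, 12 passed at a limma adjusted p under 0.05, which is 0.0869%, and 0 of the 26 members did. At an unadjusted p under 0.05 there were 3 members, Gpc3 and Hs6st2 higher and Hs3st1 lower in Pax6-/- tissue. That is 11.5% of the members, beside 8.95% of all genes. The genotypes did not overlap for 2 members, Gpc3 and Hs6st2, which is 7.69% of the members, beside 15.3% of all genes, or 8.52% when only genes higher in Pax6-/- tissue are counted. Both shares are near or below those of all genes. In bulk tissue, fewer cells of a type and less RNA per cell cannot be told apart.

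Changes of the members spread around 0 in both directions. Positive changes were found for 16 members and negative ones for 10, and 56% of all genes had a positive change. The median change was 0.17, with quartiles of -0.43 and 0.39, and the median over all genes was 0.07, with quartiles of -0.35 and 0.38. With the arrays scaled to a common median in place of quantile normalisation, the median of all genes was -0.20 and that of the members -0.22. On the brightest probes, only Gpc2 and Agrn had a 95% interval that stayed within 1 log2 unit of 0. The intervals of the other 24 members reached past 1 log2 unit (2-fold) in at least 1 direction.

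**Figure D2:**
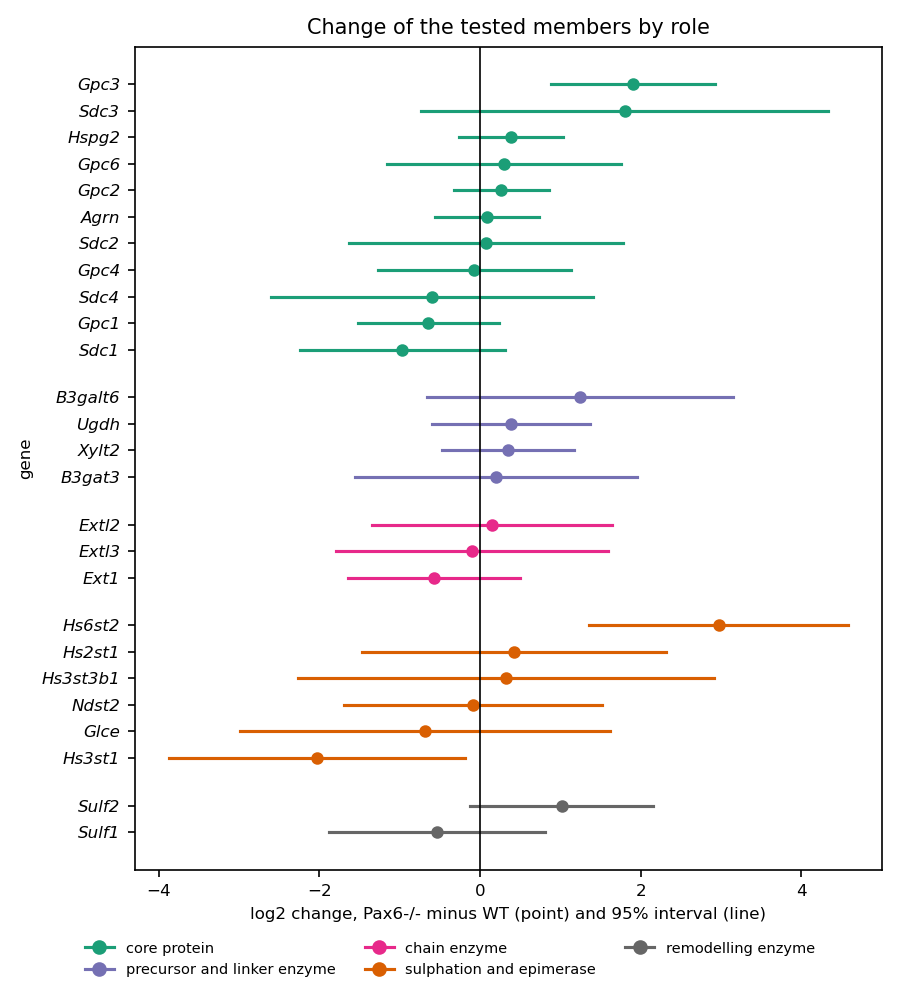
Log2 change of each of the 26 tested genes, Pax6-/- minus wild type, as a point with its 95% interval from the limma fit, grouped and coloured by role. The intervals of Gpc3 and Hs6st2 lie above 0 and that of Hs3st1 lies below 0, before any adjustment for the 13805 tests, and every other interval includes 0.

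Glypicans, which are held to the membrane by a lipid anchor, held the core protein with the largest change. Gpc3, a glypican that restrains growth of the embryo, read 9.998, 9.07 and 9.31 on the Pax6-/- arrays and 8.07, 6.89 and 7.69 on the wild-type arrays. All Pax6-/- arrays were above all wild-type arrays, and the probe was above background on all 6. The change was 1.91 ± 0.42, or 3.76-fold (95% interval 0.89 to 2.93), and did not pass over all genes (limma adjusted p = 0.227). A second Gpc3 probe was not above background on any array.

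The other glypicans did not separate by genotype. Gpc1 read 9.40, 9.06 and 8.49 on Pax6-/- arrays and 9.53, 10.10 and 9.25 on wild-type arrays, so the groups overlapped (change -0.64 ± 0.36, limma adjusted p = 0.69). Gpc2 was among the least variable members, at 9.62, 10.05 and 9.70 on Pax6-/- arrays and 9.38, 9.73 and 9.46 on wild-type arrays. Its 95% interval ran from -0.33 to 0.85 around a change of 0.26. Gpc4 averaged 7.08 ± 0.72 in Pax6-/- tissue and 7.16 ± 0.61 in wild type, and Gpc6 averaged 7.54 ± 0.97 in Pax6-/- tissue and 7.24 ± 0.67 in wild type (SD, n = 3 each).

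Syndecans, the transmembrane core proteins, overlapped between the genotypes in all 4 cases. Sdc3 read 8.93, 10.67 and 9.67 on Pax6-/- arrays and 6.04, 7.89 and 9.94 on wild-type arrays. Wild-type array 3 lay within the Pax6-/- range, and the change of 1.80 ± 1.03 had a limma adjusted p = 0.704. Sdc1, a syndecan of epithelia, averaged 5.24 ± 0.46 in Pax6-/- tissue and 6.2 ± 0.90 in wild type, and was above background on 1 Pax6-/- array and 2 wild-type arrays. Sdc4 averaged 6.16 ± 0.90 in Pax6-/- tissue and 6.75 ± 1.40 in wild type. Sdc2 averaged 7.10 ± 1.40 in Pax6-/- tissue and 7.03 ± 0.11 in wild type, with Pax6-/- array 1 at 8.67 and the other 5 arrays between 5.98 and 7.15.

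The basement membrane core proteins varied little between arrays on their brightest probes. Agrn, encoding agrin, read 11.18, 11.01 and 10.82 on Pax6-/- arrays and 10.68, 10.77 and 11.29 on wild-type arrays. Its change of 0.09 had a 95% interval of -0.56 to 0.74. A second Agrn probe, above background on 1 Pax6-/- array and 3 wild-type arrays, had a change of 0.004 ± 0.48 (95% interval -1.18 to 1.19). Hspg2, encoding perlecan, read 11.07, 10.75 and 10.97 on Pax6-/- arrays and 10.21, 10.87 and 10.55 on wild-type arrays, and the groups overlapped. Its change was 0.39 ± 0.26 on this probe and 0.55 ± 0.29 on a second probe that was above background on all 6 arrays (limma adjusted p = 0.75 in the fit over genes and 0.673 in the fit over probes).

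**Figure D3:**
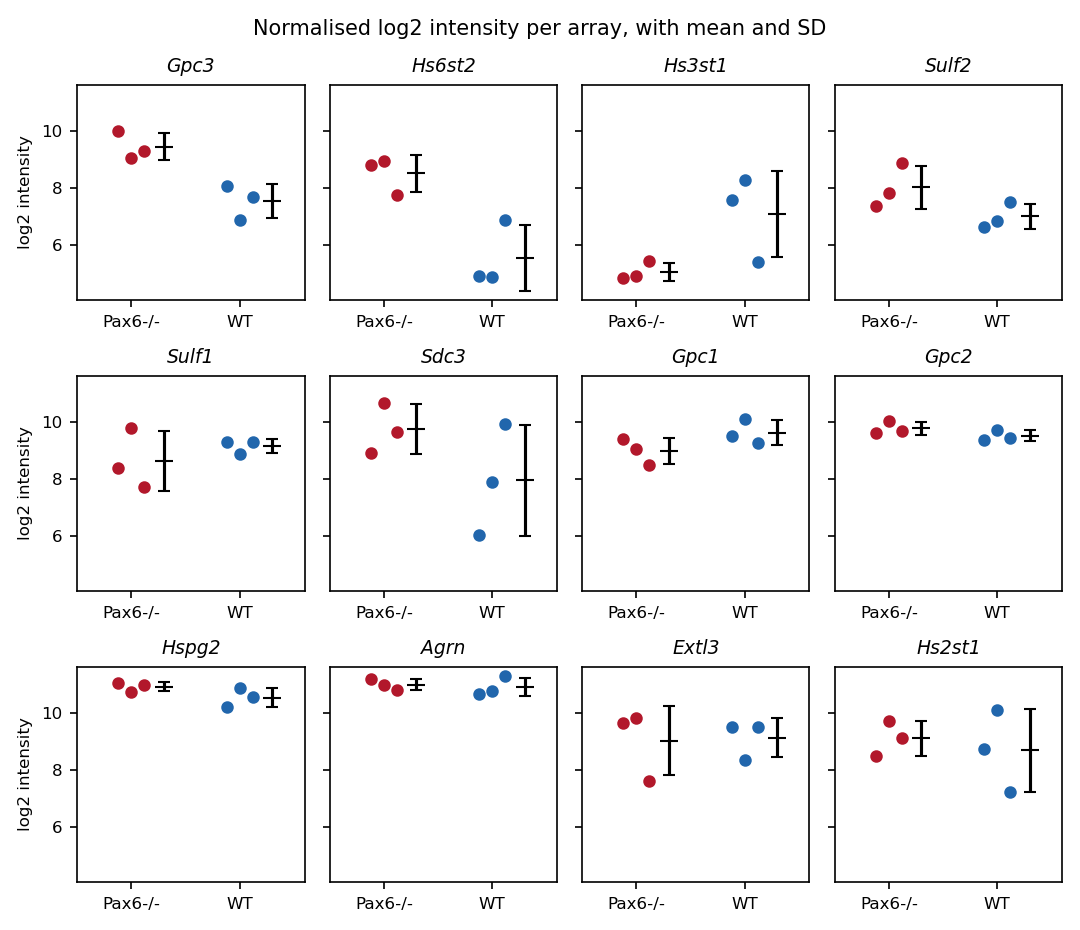
Normalised log2 intensity of 12 genes on each array, with 3 Pax6-/- arrays on the left and 3 wild-type arrays on the right of each panel, and the mean with its SD beside the points. Gpc3 and Hs6st2 show no overlap between the genotypes, Hs3st1 has 1 wild-type array among the Pax6-/- values, and Agrn, Hspg2 and Gpc2 have the narrowest spread. Levels of different genes come from different probes and are not compared.

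No precursor or linker enzyme passed. Of the 6 genes 4 were tested, and their brightest probes had a median change of 0.37. Ugdh, which makes UDP-glucuronic acid, averaged 7.39 ± 0.14 in Pax6-/- tissue and 7.0 ± 0.72 in wild type. Xylt2, a xylosyltransferase that starts the linker, averaged 7.26 ± 0.49 in Pax6-/- tissue and 6.91 ± 0.30 in wild type. B3gat3, which adds the last sugar of the linker, had changes of 0.20 ± 0.72 and 0.33 ± 0.76 on its 2 tested probes. B3galt6, a galactosyltransferase, had a change of 1.24 ± 0.78 on 1 probe and of -0.84 ± 0.82 on the other, so its direction depends on the probe.

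Chain enzymes showed no passing change either. Ext1, a polymerase subunit, averaged 6.86 ± 0.47 in Pax6-/- tissue and 7.44 ± 0.67 in wild type (change -0.58 ± 0.44, limma adjusted p = 0.772). Extl2, an exostosin-like transferase, averaged 8.72 ± 0.50 in Pax6-/- tissue and 8.57 ± 1.11 in wild type. Extl3, which adds the first chain sugar, read 9.65, 9.81 and 7.63 on Pax6-/- arrays and 9.52, 8.34 and 9.53 on wild-type arrays on its brightest probe. The 3 tested Extl3 probes gave -0.10 ± 0.69, 0.50 ± 0.77 and -1.93 ± 0.77, so they differed in sign. The last of these read 5.28, 6.12 and 6.51 on Pax6-/- arrays and 6.33, 8.22 and 9.15 on wild-type arrays (limma adjusted p = 0.542 over all probes).

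Sulphotransferases held the largest changes of the set, with opposite signs for Hs6st2 and Hs3st1. Hs6st2, which adds 6-O-sulphate, read 8.82, 8.97 and 7.77 on the Pax6-/- arrays and 4.91, 4.86 and 6.88 on the wild-type arrays. All Pax6-/- arrays were above all wild-type arrays, and the probe was above background on 3 Pax6-/- arrays and 1 wild-type array, so the wild-type mean is partly background. The change was 2.97 ± 0.66 (95% interval 1.36 to 4.58) and did not pass over all genes (limma adjusted p = 0.237). The 3 other tested probes of Hs6st2 gave smaller positive changes of 1.07 ± 0.56, 0.76 ± 0.52 and 0.42 ± 0.34, and on each of them the genotypes overlapped. On the probe that was above background on all 6 arrays the change was 0.76, so the size depends on the probe.

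Hs3st1, which adds 3-O-sulphate, had a change of the opposite sign. It read 4.85, 4.91 and 5.43 on Pax6-/- arrays and 7.58, 8.28 and 5.41 on wild-type arrays. Wild-type arrays 1 and 2 were high, while wild-type array 3 lay just below the highest Pax6-/- array, so the groups overlapped. The probe was above background on 1 Pax6-/- array and all 3 wild-type arrays, and the Pax6-/- mean is therefore partly background. The change was -2.03 ± 0.75 (95% interval -3.87 to -0.18, limma adjusted p = 0.507). It was -1.43 without wild-type array 2 and -2.87 without wild-type array 3.

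The remaining modifying enzymes varied between embryos without separating by genotype. Hs2st1, the 2-O-sulphotransferase, read 8.51, 9.73 and 9.12 on Pax6-/- arrays and 8.75, 10.12 and 7.22 on wild-type arrays, and its wild-type range contained all the Pax6-/- values. Glce, the epimerase, had changes of -0.69 ± 0.94 and 0.78 ± 1.17 on its 2 tested probes. Hs3st3b1 had the largest spread of the set, with a pooled SD of 1.55, and averaged 6.58 ± 1.81 in Pax6-/- tissue and 6.25 ± 1.22 in wild type. Ndst2 averaged 5.56 ± 1.18 in Pax6-/- tissue and 5.65 ± 0.59 in wild type (SD, n = 3 each), above background on 1 Pax6-/- array and 2 wild-type arrays.

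The 2 sulphatases had changes of opposite sign. Sulf2 read 7.39, 7.81 and 8.87 on Pax6-/- arrays and 6.65, 6.86 and 7.51 on wild-type arrays, where wild-type array 3 lay above the lowest Pax6-/- array. Its change was 1.02 ± 0.46 on this probe. A second probe read 7.77, 7.58 and 7.65 on Pax6-/- arrays and 6.51, 6.13 and 7.22 on wild-type arrays, with no overlap and a change of 1.05 ± 0.34. Neither passed (limma adjusted p = 0.606 over all genes for the first and 0.424 over all probes for the second). Sulf1 read 8.38, 9.78 and 7.73 on Pax6-/- arrays and 9.30, 8.88 and 9.31 on wild-type arrays, and its change was -0.54 ± 0.55. A second Sulf1 probe had a change of -0.94 ± 0.51, so the probes of each sulphatase had the same sign. The difference between the changes of Sulf1 and Sulf2 was not tested.

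Probes of 1 gene differed in sign for 5 of the 11 members with several tested probes: Gpc4, Gpc6, B3galt6, Extl3 and Glce. In the fit over all 17751 probes, 0.062% passed the adjusted threshold and 0 of the 40 member probes did. At an unadjusted p under 0.05 there were 5 member probes, 3 higher and 2 lower, beside 8.96% of all probes. The genotypes did not overlap for 3 of the 40, beside 15% of all probes. The spread between embryos of 1 genotype, as a pooled SD, was 0.21 to 1.55 over the 26 members, with a median of 0.85. The error of the bead mean, as each member's median over the arrays, was 0.034 to 0.090 log2 units. It was taken on raw intensities before background correction, so it is not on the same scale as the pooled SD.

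**Figure D4:**
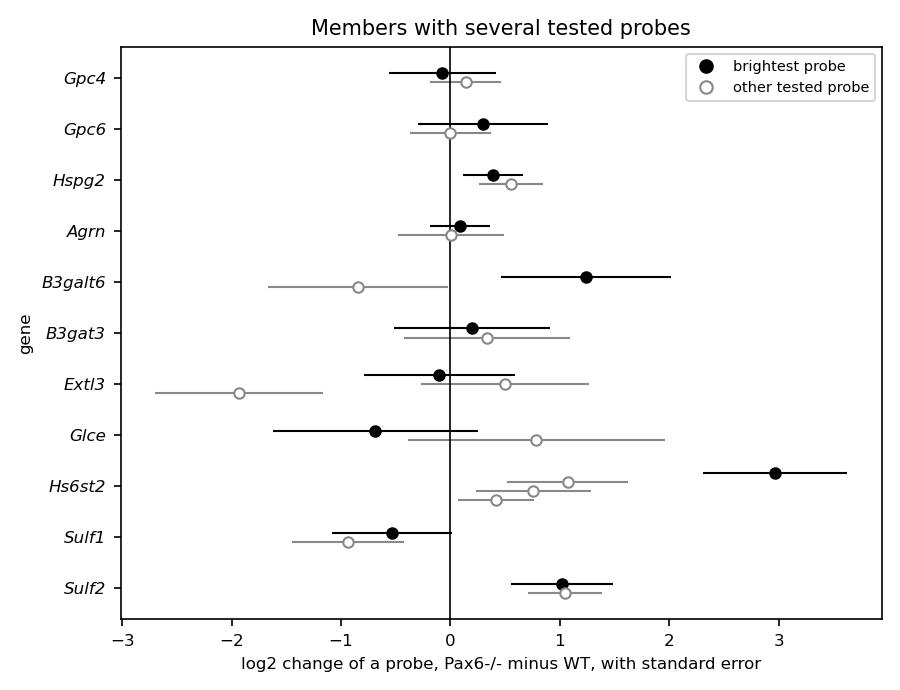
Log2 change of every tested probe for the 11 genes with several tested probes, Pax6-/- minus wild type, with the SE of the fit over all probes. Filled points are the brightest probe of the gene and open points the others. All 4 probes of Hs6st2 lie above 0 and both probes of Sulf2 lie near 1, while B3galt6, Extl3 and Glce have probes on both sides of 0.

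Gpc3 and Hs6st2 lie close together on the X chromosome. In the RefSeq order of GRCm38.p6 the protein-coding genes of this stretch are Hs6st2, Usp26, 1700080O16Rik, Gpc4 and Gpc3. Of these 5, the other 1 that was tested, Gpc4, had a change of -0.07 ± 0.49 and lies directly beside Gpc3. Leaving out Pax6-/- array 1, which differed in sex-linked RNA, the changes were 1.64 for Gpc3 and 2.82 for Hs6st2, and their limma adjusted p were 0.399 and 0.417. The marker sums given above for red blood cells, optic cup and endothelium were higher on all 3 Pax6-/- arrays than on any wild-type array, as were Gpc3 and Hs6st2. Both genes are discussed here for not overlapping, so this match follows from that choice, and 8.52% of all genes share it. The mesenchyme and macrophage sums overlapped between the genotypes. The part of any of these cells in the changes of Gpc3 and Hs6st2 was not tested.

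The sequences before the annotated starts are shown for the 4 genes with a probe at an unadjusted p under 0.05 and a start in the RefSeq promoter table, since these genes carry the differences above. Each is the 250 bases up to the 5′-most start, from RefSeq on GRCm38.p6, all on the minus strand and written 5′ to 3′. Capitals mark a GC box (GGGCGG or its reverse complement) or a TATA box (TATAAA or its reverse complement). They come from chrX:52613975-52614224 (Gpc3), chrX:51681603-51681852 (Hs6st2), chr5:39644632-39644881 (Hs3st1) and chr2:166155684-166155933 (Sulf2).
Gpc3: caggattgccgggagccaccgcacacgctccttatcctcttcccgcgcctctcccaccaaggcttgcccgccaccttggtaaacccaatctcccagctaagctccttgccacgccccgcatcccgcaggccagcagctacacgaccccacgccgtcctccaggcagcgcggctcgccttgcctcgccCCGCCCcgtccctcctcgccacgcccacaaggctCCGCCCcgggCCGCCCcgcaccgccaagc
Hs6st2: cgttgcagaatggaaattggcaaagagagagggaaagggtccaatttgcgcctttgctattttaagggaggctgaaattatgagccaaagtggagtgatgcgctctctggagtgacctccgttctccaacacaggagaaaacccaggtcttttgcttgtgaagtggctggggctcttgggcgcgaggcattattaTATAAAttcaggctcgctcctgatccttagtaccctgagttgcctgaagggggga
Hs3st1: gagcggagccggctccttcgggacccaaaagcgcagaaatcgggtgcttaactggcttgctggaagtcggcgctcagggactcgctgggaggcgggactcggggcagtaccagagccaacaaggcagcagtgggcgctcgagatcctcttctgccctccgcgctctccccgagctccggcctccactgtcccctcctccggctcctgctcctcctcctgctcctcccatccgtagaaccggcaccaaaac
Sulf2: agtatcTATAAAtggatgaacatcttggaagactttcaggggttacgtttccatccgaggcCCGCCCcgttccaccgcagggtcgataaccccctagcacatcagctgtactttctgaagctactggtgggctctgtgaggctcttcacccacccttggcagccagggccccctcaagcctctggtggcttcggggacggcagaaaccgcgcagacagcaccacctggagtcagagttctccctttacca

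The make-up of these windows depends on the start chosen. The Gpc3 window has 71.6% G and C bases, 25 CG dinucleotides and 3 GC boxes, and the printed Hs6st2 window has 50% G and C, 7 CG dinucleotides and 1 TATA box at 55 to 50 bases before the start. The window of a second annotated Hs6st2 start has 72% G and C, 26 CG dinucleotides and none of the motifs searched. The Hs3st1 window has 66.0% G and C and none of the motifs searched. The printed Sulf2 window has 57.2% G and C, 1 GC box and 1 TATA box at 244 to 239 bases before the start, and the window of a second Sulf2 start has 60% G and C and none of the motifs. The median over all 32851 windows is 52.4% G and C.

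Across the set, 26 of the 34 symbols had a window in the table, 31 windows in all. The GC box was found in 64.5% of them and in 32.7% of all windows. The core of a Pax6 paired-domain site (TTCACGC, both strands) was found in 0 of the 31 windows and in 1.03% of all windows. The homeodomain palindrome TAATTA was in 0 of 31 and 4.84% of all, and the Maf half-site TGCTGAC in 0 of 31 and 3.81% of all. An ETS site (CCGGAAG) was in 2 of the 31, before B3gat3 and Extl2, and in 6.91% of all. The TATA box was in 2 of the 31 and in 12.4% of all. A missing match says only that these letters are not in these bases.

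FGF ligands, receptors and response genes are the pathway that these chains serve. No gene of the 3 FGF lists passed over all genes. Of 15 ligand genes 3 were tested, and 9 were not above background on any array. Fgf15 read 7.68, 8.88 and 9.60 on Pax6-/- arrays and 6.07, 7.43 and 7.26 on wild-type arrays. The groups did not overlap, as for 8.52% of all genes in this direction, and the change was 1.80 ± 0.61 (limma adjusted p = 0.457). Fgf18 had a change of 0.38 ± 0.25.

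Among 13 tested receptors and signal carriers, 1 was higher and 0 lower at an unadjusted p under 0.05, with a median change of -0.06. For single directions, 4.24% of all genes were higher and 4.7% lower at that threshold. Fgfr2, a receptor of the FGF7 and FGF10 class of ligands, read 11.64, 11.46 and 11.17 on Pax6-/- arrays and 10.81, 9.74 and 10.82 on wild-type arrays, a change of 0.97 ± 0.37 on its brightest probe. Its 3 other tested probes had changes of -0.48, -0.72 and -0.53, so the direction depends on the probe. Fgfr1 averaged 8.0 ± 0.33 in Pax6-/- tissue and 8.11 ± 0.90 in wild type, and Fgfr3 and Fgfr4 were not above background on any array. Braf, a kinase upstream of ERK, had a change of 1.03 ± 0.73, the adaptor Shc1 of -0.70 ± 0.33 and the phosphatase Ptpn11 of -0.60 ± 0.52.

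The FGF and ERK response genes had a median change of -0.26 over 11 tested members. At an unadjusted p under 0.05, 2 were lower and 0 higher, beside 4.7% lower and 4.24% higher of all genes. Etv1, an ETS factor induced by FGF, read 5.37, 6.83 and 6.76 on Pax6-/- arrays and 9.51, 8.84 and 8.97 on wild-type arrays (change -2.78 ± 0.47, limma adjusted p = 0.145). A second Etv1 probe, above background on 1 Pax6-/- array and 2 wild-type arrays, had a change of -0.39 ± 0.89, and the genotypes overlapped on it. Etv5, a related factor, read 7.82, 8.37 and 4.86 on Pax6-/- arrays and 10.17, 10.52 and 9.39 on wild-type arrays (change -3.01 ± 0.96, limma adjusted p = 0.419), and its second probe had a change of -2.43 ± 0.41. The genotypes did not overlap for 4 of the 11, all lower, beside 6.81% of all genes. Myc and Spred3 had the smallest p-values among the positive changes, at 0.35 ± 0.27 and 0.62 ± 0.96.

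**Figure D5:**
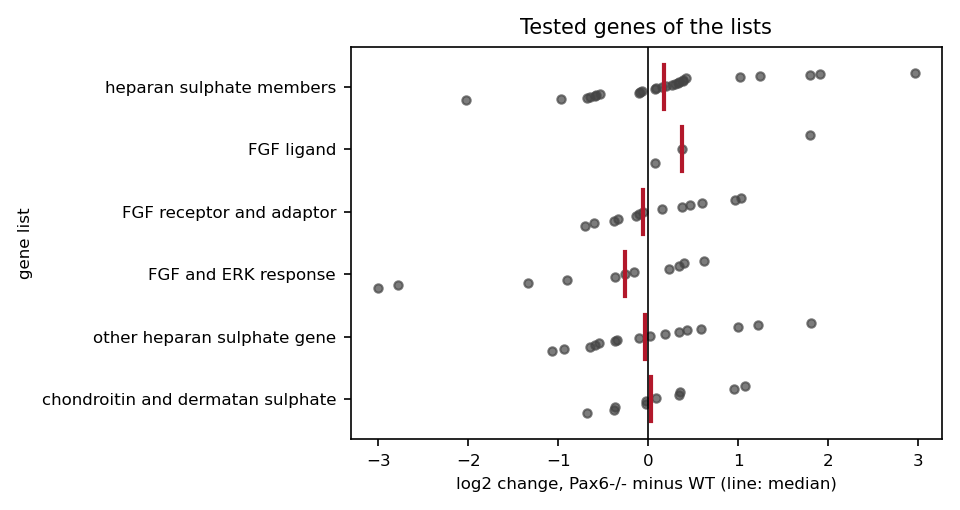
Log2 change of each tested gene of the heparan sulphate set and of 5 related lists, Pax6-/- minus wild type, with the median of each list as a line. The heparan sulphate genes lie on both sides of 0 with a median of 0.17, and the FGF and ERK response genes reach lowest with Etv5 at -3.01.

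Other heparan sulphate genes, of core proteins, synthesis, transport and breakdown, were taken from a separate list of 33. Of these 16 were tested, 0 passed over all genes, and 1 was higher and 1 lower at an unadjusted p under 0.05 (median change -0.04). Over all genes, 4.24% were higher and 4.7% lower at that threshold, and 8.52% were higher without overlap. Col18a1, the core of a basement membrane collagen that carries heparan sulphate, read 9.28, 8.74 and 9.60 on Pax6-/- arrays and 8.13, 6.11 and 7.95 on wild-type arrays, without overlap (change 1.81 ± 0.60, limma adjusted p = 0.446). Sgsh, a lysosomal sulphatase that degrades the chains, read 6.78, 8.03 and 6.89 on Pax6-/- arrays and 8.23, 8.74 and 7.96 on wild-type arrays, a change of -1.07 ± 0.43. Slc35b3, a transporter of the sulphate donor, had a change of 1.23 ± 0.81, and Naglu, another lysosomal enzyme of the chains, of -0.59 ± 0.45.

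Genes of chondroitin and dermatan sulphate, the chains that share the linker, had 0 of 10 tested members at an unadjusted p under 0.05 and a median change of 0.03. The chondroitin sulphotransferase Chst11 had a change of 0.96 ± 0.60 and Ust, which adds 2-O-sulphate to uronic acid, of 1.07 ± 0.73. The chondroitin synthase Chsy1 had a change of -0.37 ± 0.27 and the proteoglycan Ptprz1 of -0.38 ± 0.40.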

How the data were processed

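Per the labels' protocols, 15 ng of total RNA per embryo was amplified to cDNA, labelled with biotin and read on 1 array. The deposited table holds, per the file headers, each probe's mean bead intensity on a linear scale, the standard error of that mean (a signal), the count of beads and a detection p-value against control beads. GenomeStudio is named in the submitters' processing notes, with no version. Processed intensity values of the authors, deposited separately with their normalisation method not stated, served as an alternative.

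The normalisation used limma 3.58.1 under R 4.3.3 and consisted of normexp background correction with controls inferred from detection p-values, offset 16, quantile normalisation and log2. The offset shrinks changes of dim genes, and quantile normalisation hides a shift shared by most genes. A probe entered the tests if 3 or more of the 6 arrays had a detection p under 0.05, and the probe with the highest mean stood for its gene. Of 46632 probes, 29976 had 1 symbol, 10 had several and 16646 none, and 29921 matched RefSeq (GRCm38.p6) by gene ID. Wild type was subtracted from Pax6-/- in limma's lmFit and eBayes, with p-values Benjamini-Hochberg adjusted over 13805 genes or unnamed probes, 9195 of them named. With 3 arrays per genotype an exact permutation test cannot go below 0.1, so p-values rest on limma's variance model. A median of 35 beads stood behind each member's value. The fit was tested on simulated data.

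The labels give 1 embryo per array. All arrays shared 1 slide. Members, lists and tests were chosen with earlier results of these data known. Values on all arrays are given for members at an unadjusted p under 0.05, without overlap, detected mainly in 1 genotype or among the 6 with the brightest probe. Sdc3, Sulf1 and Sulf2, and the dimmer probes of Extl3 and Sulf2, were added after their values were seen. From each FGF, heparan or chondroitin sulphate list up to 2 genes per direction with the smallest p are named. Fgfr1, Fgfr3 and Fgfr4, and the markers named, were chosen after their values were seen. Every tested brightest probe of the set was above background in both genotypes on 1 array or more, so no change is given as a bound. Promoter windows were searched on both strands.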

Additional observations from a re-analysis of the deposited data

Results flagged for a closer look

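Among the probes that failed the filter, 1 probe each of 2 genes was detected on 2 Pax6-/- arrays and on no wild-type array. Only this direction was searched, and the share of all probes with this pattern was not counted. Another Hs6st2 probe (ILMN_2488062) read 5.29, 5.17 and 7.70 on Pax6-/- arrays and 5.08, 4.88 and 4.87 on wild-type arrays. A Hs3st3a1 probe (ILMN_1238617) read 5.16, 5.29 and 5.46 on Pax6-/- arrays and 5.10, 5.15 and 5.18 on wild-type arrays, and the gene's other probe reached 7.12 on Pax6-/- array 2 and was not above background on any other array. On ILMN_1238617 the detection p on wild-type arrays was 0.0512 to 0.0599, just above the threshold. Neither ILMN_2488062 nor ILMN_1238617 was tested in the main comparison.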

How the results depend on the processing

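No member passed an adjusted p of 0.05 under any of the 21 alternatives, in the fit over genes or, where it was run, in the fit over probes. Gpc3 (1.57 to 2.17), Hs6st2 (0.59 to 3.63) and Sulf2 (0.60 to 1.34) stayed positive in all 21, and Hs3st1 (-2.87 to -1.42) stayed negative in the 19 that kept it. For Gpc3 and Hs6st2, whose genotypes did not overlap, leaving out 1 array could not change the sign. Alternatives that changed only the filter or the variance model mostly returned the same change. The 21 are therefore not separate checks of the sign. Of 536 member values under the alternatives, 44 had another sign than reported, none of them for a member whose reported change exceeded 1 log2 unit. Hs6st2 depended on its probe: when the brightest probe was chosen again after median scaling, cyclic loess or on the authors' values, a choice added after seeing the data, its change was 0.59, 0.92 and 0.99.

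The members at an unadjusted p under 0.05 numbered 1 with the filter on all 6 arrays, which Hs3st1 failed and which gave Hs6st2 another probe. They numbered 2 to 5 with 1 array left out (5 without wild-type array 3). Of these runs, Hs3st1 was among the members only in the one without wild-type array 3. It was also not among them with no filter or with the replicate block. The shares of all genes were 8.76% with the filter on all 6 arrays and 7.88% to 11.2% with 1 array left out (11.2% without wild-type array 3). The members without overlap numbered 4 with median scaling and with no filter, 1 with the filter on all 6 arrays and 5 with probes averaged. The shares of all genes there were 15.5%, 12.8%, 15.4% and 15.2%. The members numbered 1 with cyclic loess or the authors' values and the probe chosen again, beside 14.7% and 15.3% of all genes. They numbered 3 to 9 with 1 array left out, where fewer arrays overlap less, beside 23% to 33.7% of all genes. The median change was -0.22 with median scaling, whichever probe was used. The count of all genes that passed was 7 with median scaling (also with the probe chosen again), 2 without background correction, 6 with offset 50, 3 with no filter, 0 with the filter on all 6 arrays, 28 with probes averaged, 20 with the authors' values (also with the probe chosen again), 3 with trend and robust, and 0 to 2 with 1 array left out. The cause of these shifts was not tested. With the replicate block this count was 0. What else arrays with the same replicate number shared is not known here, and their deviations had correlations of -0.017 to 0.0053. At 3 arrays per genotype, most members' intervals reach past a 2-fold change.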
